A study of Danio rerio with 9 samples.

Results

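A set of 10 genes of the Tgf-beta and activin route to Smad3, together with the Smad corepressor Tgif1, were followed in zebrafish Müller glia (MG) before and after retinal injury. They were chosen by symbol (tgfb1a, tgfb1b, tgfb2, tgfb3, tgfbr1b, tgfbr2b, smad3a, smad3b, tgif1 and inhbaa), and the symbols were matched to Ensembl IDs ignoring case, dropping a final a or b where the full symbol had no match. The 10 symbols led to 13 gene IDs of the 23707 in the table, because the names table gives SMAD3, TGFBR1, TGFBR2 and INHBA to a pair of IDs each and does not say which is the a and which the b copy. All 13 are kept here, and each member of a pair is called by its symbol and the last 5 digits of its Ensembl ID, as in SMAD3-10207. All 13 IDs were among the 20484 that passed the filter on low counts.

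Tgf-beta ligands are secreted in a latent complex and must be freed before they act, a step in which integrins and matrix proteases take part. The free ligand joins type II and type I receptor kinases, which phosphorylate Smad2 and Smad3, and these move to the nucleus with Smad4. Activins, dimers of inhibin beta subunits, use their own receptors but the same Smads, and Tgif1 is a homeodomain protein that binds Smads and recruits corepressors to their targets. In fish, MG respond to injury by dividing and producing retinal progenitors, and Tgf-beta signaling and Tgif1 have both been tied to that response in zebrafish.

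The libraries were made from polyA RNA of GFP+ MG sorted by FACS from adult gfap:GFP fish, a line in which the gfap promoter drives GFP in MG. There were 3 groups of 3 libraries: uninjured wild type (Wt), Wt at 2 days post injury (dpi) by needle poke, and mych mutants (mych mut, mych-/-) at 2 dpi by the same injury, all carrying gfap:GFP. The mutant line holds a CRISPR-made germline frameshift in mych, a Myc family gene. Fish of both sexes were used, and each library pooled the retinas of several fish, so the spread between libraries is that between pools. There were no uninjured mutants, so a genotype difference that was present before injury and one that arose after it cannot be told apart.

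Library totals ran from 46835977 to 77133615 counts. The mych transcript itself rose 12.8-fold with injury (log2 fold change 3.68, SE 0.33) and lay at a log2 difference of -0.55 in the mutant (SE 0.30, edgeR adjusted p = 0.335), and a frameshift need not lower a transcript. MG markers were high in every library (10366 to 35205 CPM, counts scaled to library size, summed over 9 IDs), but transcripts of other cells were present too. By group the MG sums were 10366 to 17230.5 CPM in uninjured Wt, 14709 to 22982 CPM in Wt at 2 dpi and 12925 to 35205 CPM in mych mut. Summed rod markers fell from 14300 to 28404 CPM in uninjured Wt to 1063 to 3276 CPM in Wt at 2 dpi and were 1297 to 2872 CPM in mych mut. Cone markers were 42969 to 66732 CPM, 13899 to 25571 CPM and 18268 to 26193 CPM in the same order. Summed over 19 IDs, inner retinal neuron markers were 6335 to 7250 CPM in uninjured Wt, 1399 to 2825 CPM in Wt at 2 dpi and 2337 to 4077 CPM in mych mut. With injury 17 of the 19 inner neuron IDs were called lower, beside 19.8% of all genes. Between genotypes 0 of the 19 were called, beside 1.69% of all genes. In that comparison 18 had a positive log2 difference, beside 52% of all genes, while the medians of the rod and cone IDs were -0.15 and 0.07. Markers of dividing cells, summed over 6 IDs, were 44.9 to 52.4 CPM in uninjured Wt, 1537 to 2256 CPM in Wt at 2 dpi and 674 to 1265 CPM in mych mut. Between genotypes all 6 had a negative log2 difference (median -1.19), and 1 was called lower, beside 1.33% of all genes. In bulk libraries of this kind, fewer cells of a type and less RNA per cell cannot be told apart, and the part of these transcripts in the differences below was not tested.

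Injury changed 4 of the 13 IDs, 2 upward and 2 downward. TGFB2 and TGIF1 rose, whereas SMAD3-36096 and TGFB3 fell. Calls required a Benjamini-Hochberg adjusted p of 0.05 or less from edgeR's quasi-likelihood test together with a log2 fold change beyond 0.5 in either direction, and 42.1% of all genes tested were called in this comparison (22.3% higher and 19.8% lower). The 30.8% of members called was thus no more than the background. The 3 libraries of each group did not overlap for 4 of the 13 members, against 56.6% of all genes.

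**Figure D1:**
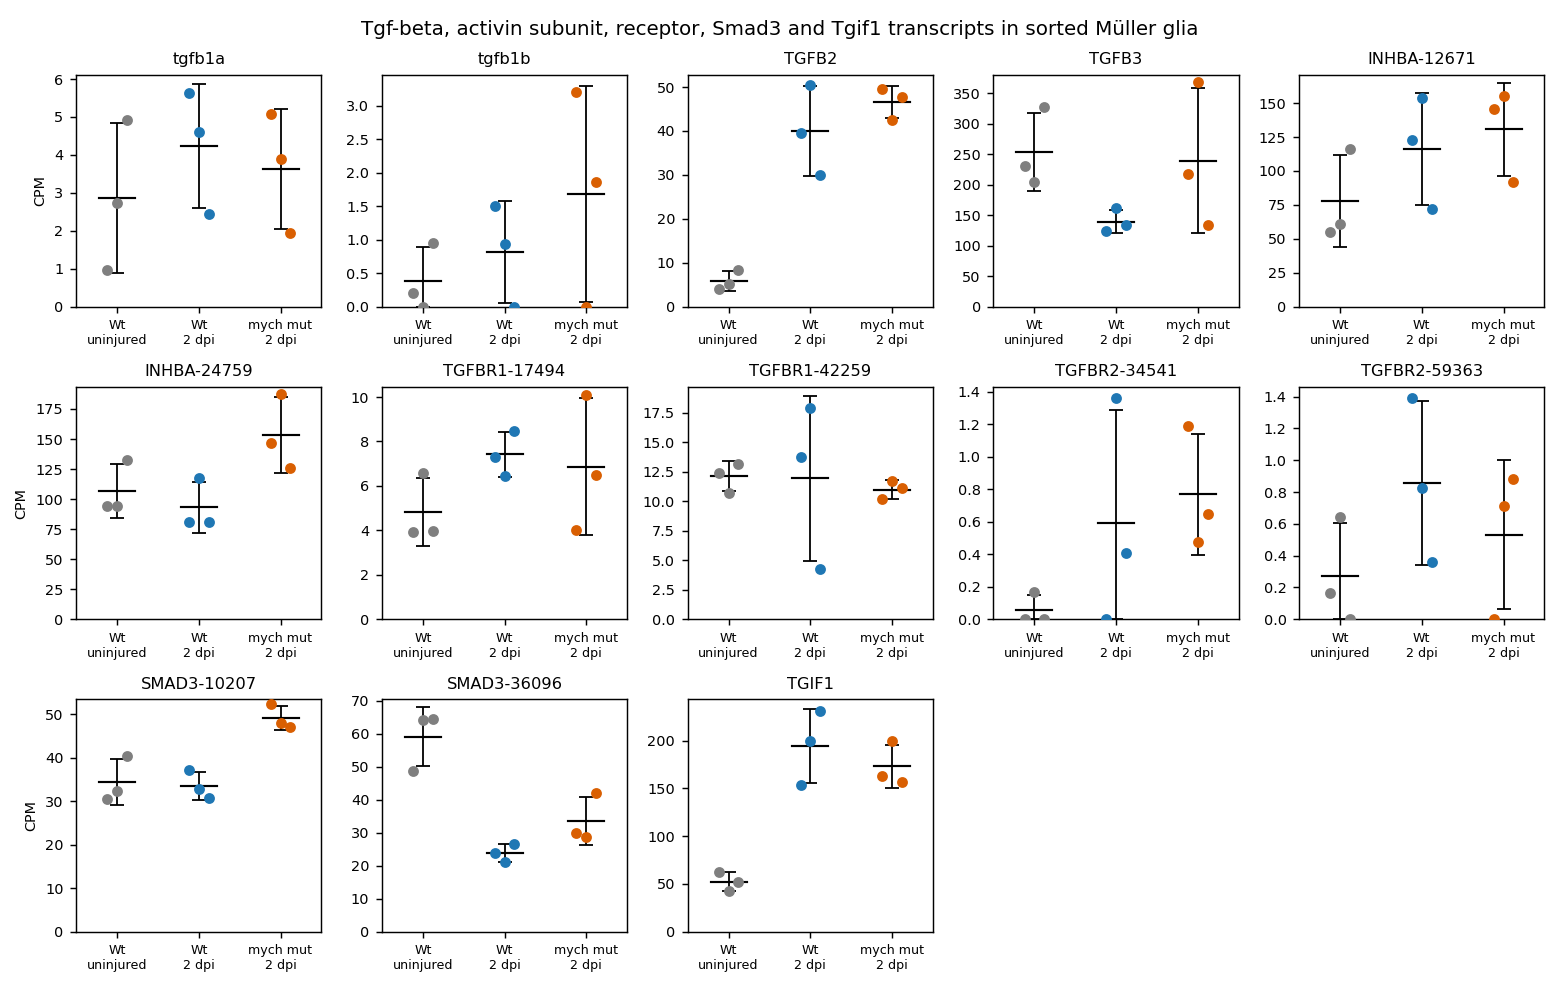
Level of each of the 13 gene IDs in CPM (vertical axis, scaled separately in each panel) for the 3 groups. Dots are libraries, the horizontal bar is the group mean and the whisker is 1 SD, cut at 0. TGFB2 and TGIF1 stand higher in all 6 libraries at 2 dpi than in the 3 uninjured ones, and SMAD3-36096 stands lower.

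Of the ligands, TGFB2 (ENSDARG00000027087) moved furthest. Its level was 4.02, 5.28 and 8.33 CPM in the uninjured Wt libraries, 39.5, 50.5 and 30.1 CPM in Wt at 2 dpi, and 49.6, 42.4 and 47.7 CPM in mych mut at 2 dpi. Every injured library lay above every uninjured one, and the injured genotypes overlapped. TGFB2 rose 6.80-fold with injury in Wt (SE 0.30 around a log2 fold change of 2.77, edgeR adjusted p = 2.5e-05). In mych mut at 2 dpi it was 7.92-fold higher than in uninjured Wt (log2 difference 2.98, SE 0.30, edgeR adjusted p = 3.4e-05). Between genotypes the log2 difference was 0.22, with a 95% interval from -0.38 to 0.82, and no difference in TGFB2 was detectable at this spread.

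TGFB3 (ENSDARG00000019367) went the other way. Its level was 230.1, 203.8 and 326.4 CPM in uninjured Wt, 123.7, 161.2 and 134.1 CPM in Wt at 2 dpi, and 217.0, 367.9 and 133.3 CPM in mych mut. The Wt groups did not overlap, but the mutant libraries spread over the ranges of both. TGFB3 fell by 0.86 on the log2 scale with injury in Wt (SE 0.32, edgeR adjusted p = 0.0491). That call lay at the threshold: it was lost without uninjured Wt library 1 or 3, without any of the 3 Wt libraries at 2 dpi, or without mych mut library 1 (adjusted p 0.0674 to 0.176, log2 fold change -0.98 to -0.63), with DESeq2 size factors (adjusted p = 0.0558) and with library size scaling alone (adjusted p = 0.0513). In mych mut at 2 dpi TGFB3 was 1.71-fold higher than in Wt at 2 dpi, a difference that did not pass after adjustment (log2 difference 0.78, 95% interval 0.08 to 1.48, edgeR adjusted p = 0.215).

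The Tgf-beta1 genes gave few counts. The tgfb1a transcript (ENSDARG00000041502) measured 0.96, 2.74 and 4.92 CPM in uninjured Wt, 5.64, 4.62 and 2.44 CPM in Wt at 2 dpi and 5.07, 3.88 and 1.95 CPM in mych mut, and the groups overlapped. The tgfb1b transcript (ENSDARG00000034895) had 11, 0 and 60 counts in uninjured Wt, 96, 74 and 0 counts in Wt at 2 dpi, and 192, 0 and 118 counts in mych mut. One library of each group thus held no tgfb1b count at all, which at these depths allows up to 0.0714, 0.0469 and 0.0396 CPM (3 counts, counting error only), while the other 2 libraries of each group held between 11 and 192 counts. Neither gene was called in any comparison, and for tgfb1b the injury interval ran from -3.45 to 5.58 on the log2 scale. Tgf-beta1 is also made by microglia, whose markers summed over 12 IDs were 25.7 to 77.8 CPM in uninjured Wt, 69.3 to 90.0 CPM in Wt at 2 dpi and 59.1 to 95.4 CPM in mych mut, and their part in the tgfb1a level was not tested. A further Tgf-beta gene outside the chosen set, tgfb5, looked at after its values were seen, had a mean of 1.65, 0.92 and 1.05 CPM in the 3 groups and was not called.

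The INHBA genes encode the inhibin beta A chain that forms activin A. INHBA-12671 measured 54.999, 61.2 and 116.5 CPM in uninjured Wt, 123.0, 153.5 and 71.9 CPM in Wt at 2 dpi, and 145.4, 155.1 and 91.6 CPM in mych mut. INHBA-24759 measured 94.1, 93.8 and 132.4 CPM in uninjured Wt, 80.5, 117.9 and 81.2 CPM in Wt at 2 dpi, and 146.9, 187.6 and 125.6 CPM in mych mut. The groups overlapped for INHBA-12671, whereas INHBA-24759 was higher in every mutant library than in every Wt library at 2 dpi. With injury, INHBA-12671 changed by 0.58 on the log2 scale (95% interval -0.17 to 1.33, edgeR adjusted p = 0.198), and without uninjured Wt library 3 the change was 1.01 and was called (edgeR adjusted p = 0.0312). INHBA-24759 changed by -0.20 (95% interval -0.70 to 0.30).

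The receptor IDs gave no call. TGFBR1-42259 measured 12.4, 10.7 and 13.2 CPM in uninjured Wt, 13.8, 17.9 and 4.24 CPM in Wt at 2 dpi and 10.2, 11.7 and 11.1 CPM in mych mut. TGFBR1-17494, the other type I receptor ID, measured 3.91, 6.59 and 3.97 CPM in uninjured Wt, 7.32, 6.46 and 8.48 CPM in Wt at 2 dpi and 3.997, 10.1 and 6.51 CPM in mych mut. Both overlapped between groups, with injury log2 fold changes of -0.02 (95% interval -0.92 to 0.88) and 0.62 (-0.25 to 1.49). The type II receptor IDs were near the counting floor. TGFBR2-34541 had no count in 2 of the 3 uninjured Wt libraries and in 1 of 3 Wt libraries at 2 dpi, and its highest value in any library was 1.36 CPM. TGFBR2-59363 likewise reached no more than 1.39 CPM and had no count in 1 uninjured Wt and 1 mych mut library. With intervals from -1.73 to 8.53 and from -2.73 to 6.07 on the log2 scale, a response of the type II receptor IDs to injury was not detectable. Libraries of 1 group differed widely, with 0, 107 and 26 counts of TGFBR2-34541 in Wt at 2 dpi and 0, 54 and 56 counts of TGFBR2-59363 in mych mut. Another gene of that kind, tgfbr2l, looked at after its values were seen and outside the chosen set, held at most 93 counts in any library.

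One of the SMAD3 IDs fell with injury and the other was not called. SMAD3-36096 measured 48.8, 64.1 and 64.4 CPM in uninjured Wt, 23.8, 21.1 and 26.6 CPM in Wt at 2 dpi, and 30.0, 28.6 and 41.9 CPM in mych mut. The 3 groups did not overlap, with the mutants between both Wt groups. It fell by 1.31 on the log2 scale with injury in Wt (SE 0.22, edgeR adjusted p = 0.0005), a 2.48-fold lower level. In mych mut at 2 dpi it lay 0.82 lower on the log2 scale than in uninjured Wt (SE 0.21, edgeR adjusted p = 0.0144). The Wt call was kept without any one library and under every other setting run, whereas the mutant call was lost with library size scaling alone (adjusted p = 0.0551) and without any of 4 libraries (uninjured Wt 2 or 3, mych mut 1 or 2).

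SMAD3-10207 measured 30.5, 32.3 and 40.3 CPM in uninjured Wt and 37.1, 32.7 and 30.6 CPM in Wt at 2 dpi. Its injury log2 fold change was -0.04 with a 95% interval from -0.44 to 0.36, which leaves out a change as large as that of the other copy, and its sign turned with library size scaling alone. In mych mut it measured 52.2, 48.1 and 47.1 CPM, above all 6 Wt libraries.

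**Figure D2:**
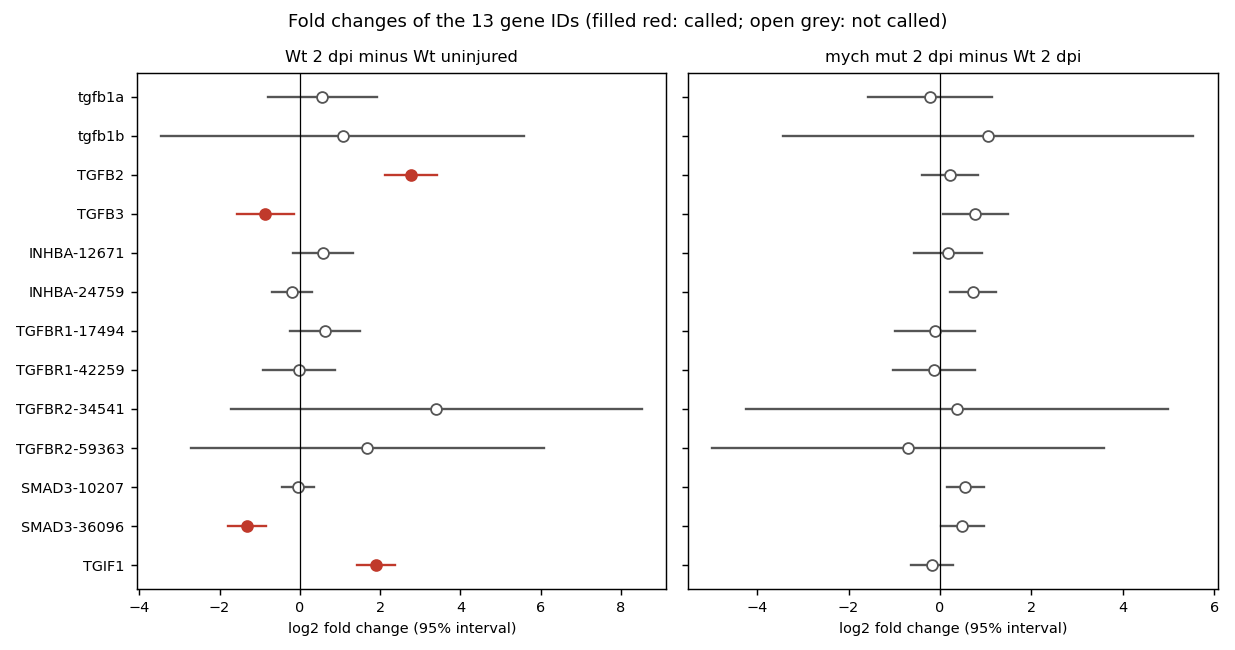
Log2 fold change (horizontal axis) with its 95% interval for each of the 13 gene IDs, with injury in Wt on the left and between genotypes at 2 dpi on the right. Filled red dots were called and open grey dots were not. With injury 4 IDs are red (TGFB2 at 2.77, TGIF1 at 1.89, TGFB3 at -0.86 and SMAD3-36096 at -1.31), and between genotypes none is.

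TGIF1 (ENSDARG00000059337) rose with injury in Wt and was also higher in injured mych mut than in uninjured Wt. Its level was 62.8, 42.3 and 52.1 CPM in uninjured Wt, 153.2, 199.8 and 230.9 CPM in Wt at 2 dpi, and 162.6, 199.3 and 157.3 CPM in mych mut. All 6 injured libraries lay above all 3 uninjured ones, and the injured genotypes overlapped. The rise was 3.71-fold in Wt (SE 0.22 around a log2 fold change of 1.89, edgeR adjusted p = 4.3e-05). In mych mut at 2 dpi TGIF1 was 3.30-fold higher than in uninjured Wt (log2 difference 1.72, SE 0.22, edgeR adjusted p = 0.00017). Between genotypes the log2 difference was -0.17, with a 95% interval from -0.63 to 0.29.

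Over the 9 libraries, the genes whose log2 CPM followed TGIF1 most closely among 10320 candidates with a symbol and at least 10 CPM were ADM, the peptide hormone adrenomedullin (Pearson r = 0.996), AP3M1, a subunit of an adaptor complex in vesicle traffic (0.995), and tsg101b, of the ESCRT sorting machinery (0.995). For SMAD3-36096 they were RHOBTB1 (0.988), stat5a (0.982) and MAP3K5 (0.981), for SMAD3-10207 cers4b, SIRT1 and ADAMTS5 (0.966, 0.946 and 0.931), and for TGFB3 zgc:153704, sc:d189 and SLCO2A1 (0.974, 0.971 and 0.955). These values are descriptions over libraries that share the injury difference and carry no test.

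Ratios of raw counts within a library do not depend on the scaling between libraries. Transcript lengths were not used, so a ratio is read only for its change between groups, not for which gene of the pair was higher. The ratio of SMAD3-36096 to SMAD3-10207 was 1.73 ± 0.22 (SD, n = 3) in uninjured Wt, 0.717 ± 0.13 (SD, n = 3) in Wt at 2 dpi and 0.686 ± 0.18 (SD, n = 3) in mych mut. It was thus lower in every injured library than in every uninjured one and did not separate the genotypes at 2 dpi. The 2.42-fold fall in Wt had a two-sided exact permutation p = 0.1, the smallest that 3 against 3 libraries allow (20 splits), so no ratio could pass 0.05. The genotype difference had an exact permutation p = 0.6. The ratio of TGFB2 to TGFB3 rose from 0.0230 ± 0.0048 (SD, n = 3) to 0.286 ± 0.053 (SD, n = 3) with injury in Wt and was 0.234 ± 0.12 (SD, n = 3) in mych mut. TGIF1 relative to SMAD3-36096 went from 0.919 ± 0.33 (SD, n = 3) to 8.20 ± 1.6 (SD, n = 3) in Wt and to 5.38 ± 1.6 (SD, n = 3) in mych mut, and relative to SMAD3-10207 from 1.55 ± 0.43 (SD, n = 3) to 5.92 ± 1.7 (SD, n = 3) and 3.53 ± 0.54 (SD, n = 3). For both TGIF1 ratios the 2 dpi groups overlapped. INHBA-12671 relative to INHBA-24759 was 0.706 ± 0.15 (SD, n = 3), 1.24 ± 0.33 (SD, n = 3) and 0.849 ± 0.13 (SD, n = 3). Only the Wt groups did not overlap, and narrowly so, with a highest uninjured ratio of 0.880 and a lowest ratio at 2 dpi of 0.884.

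**Figure D3:**
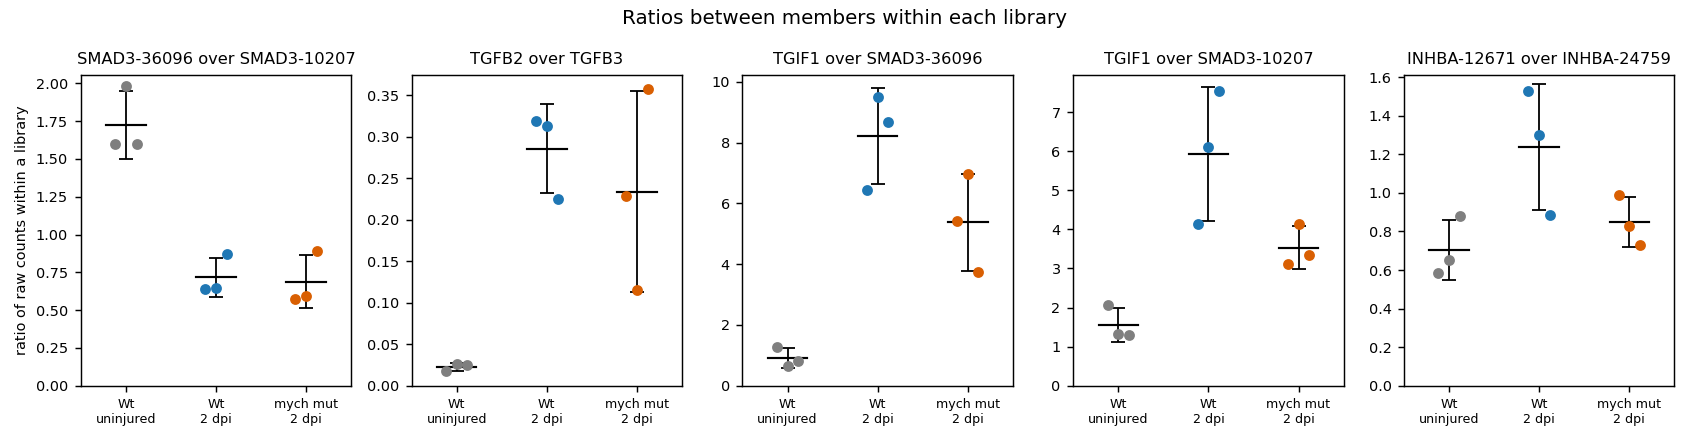
Ratio of raw counts between members within each library (vertical axis, no unit) for the 3 groups. Dots are libraries, bars are means and whiskers are 1 SD. The SMAD3-36096 to SMAD3-10207 ratio lies between 1.597 and 1.98 in uninjured Wt and between 0.575 and 0.888 in all injured libraries.

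No member was called between genotypes at 2 dpi, where 1.69% of all genes were called (1.33% lower and 0.366% higher in mych mut). DESeq2's Wald test also called 0 of the 13, beside 1714 of all 20484 genes. Unadjusted edgeR p was under 0.05 for 4 of the 13, beside 19.4% of all genes. Each of these was higher in mych mut: INHBA-24759 by 0.72 on the log2 scale (SE 0.23, edgeR adjusted p = 0.122), SMAD3-10207 by 0.55 (SE 0.18, edgeR adjusted p = 0.133), TGFB3 by 0.78 (SE 0.32, edgeR adjusted p = 0.215) and SMAD3-36096 by 0.49 (SE 0.21, edgeR adjusted p = 0.232). INHBA-24759 and both SMAD3 IDs had groups that did not overlap, 3 of 13 members against 23.8% of all genes, which is close to the background. Inner neuron and oligodendrocyte markers had median log2 differences of 0.80 and 0.86 in the same comparison, in the direction of these members. Over all marker lists the medians ran from -1.30 (pigment epithelium) to 1.47 (erythrocytes, 2 IDs tested). The part of these cells in the member differences was not tested. Left out one at a time, the libraries moved the count of genes called between genotypes over all genes from 8 to 1026, and the count of members stayed at 0.

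Against uninjured Wt, mych mut at 2 dpi had 3 members called (25.8% of all genes were, 16.3% higher and 9.53% lower): TGFB2 and TGIF1 higher and SMAD3-36096 lower. The groups did not overlap for 5 of the 13, against 46.4% of all genes. This comparison shares its uninjured libraries with the Wt one. TGFB3, called lower in Wt, lay at -0.08 in the mutants (95% interval -0.78 to 0.62). SMAD3-10207 reached 0.52 (SE 0.18, edgeR adjusted p = 0.0587) and was called with library size scaling alone (0.67, adjusted p = 0.0259) and without uninjured Wt library 3 (0.66, adjusted p = 0.0445). INHBA-24759 (0.52, edgeR adjusted p = 0.120) was also called with library size scaling alone (0.66, adjusted p = 0.0486). INHBA-12671 (0.75, edgeR adjusted p = 0.134) was called without uninjured Wt library 3 (1.18, adjusted p = 0.0245).

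Around the members, 49 of 51 IDs of a wider list of ligands, latency and activation genes, receptors, Smads with their cofactors, and inhibitors were tested. With injury 7 were called higher and 12 lower, a share of 38.8% beside the 42.1% of all genes, and the median log2 fold change was -0.47 against -0.02 over all genes. Between genotypes 0 of 49 were called by edgeR, and 8 had an unadjusted edgeR p under 0.05, beside 19.4% of all genes. DESeq2 called 3 of the 49 (ITGB6 and MMP14 lower and PPM1A-43250 higher), and over all 20484 genes it called 1714 where edgeR called 347.

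Other receptors of the family were called lower or not at all. All 8 tested IDs, 7 type I and II receptors for activins and related ligands and the co-receptor TGFBR3, had a negative log2 fold change with injury. Of these 5 were called lower and 0 higher (62.5%, median -1.02). Over all genes 19.8% were called lower and 42.1% in either direction. ACVR1C, a type I receptor for activin and Nodal ligands, measured 28.8, 60.3 and 32.6 CPM in uninjured Wt and 13.9, 3.15 and 12.7 CPM in Wt at 2 dpi, a fall of 2.03 on the log2 scale (SE 0.49, edgeR adjusted p = 0.0057). ACVR2A, an activin type II receptor, measured 89.4, 90.25 and 89.8 CPM in uninjured Wt, 45.6, 46.8 and 35.6 CPM in Wt at 2 dpi, and 59.3, 45.7 and 64.7 CPM in mych mut. All injured libraries were below the uninjured ones. The ACVR1B-52142 type I receptor fell by 1.69 (SE 0.33, edgeR adjusted p = 0.0016) and acvr2ab by 1.01 (SE 0.38, edgeR adjusted p = 0.0496), the last at the threshold. Inner neuron markers fell over the same libraries by a median of 1.87 on the log2 scale, and their part in the receptor levels was not tested.

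Of the latency and activation genes, 3 of 9 tested were called (33.3%, beside 42.1% of all genes) and all 3 rose. Over all genes 22.3% were called higher. ITGB6, the beta chain of an integrin that frees latent Tgf-beta in mammals, measured 1.88, 2.33 and 1.85 CPM in uninjured Wt, 94.7, 89.8 and 94.1 CPM in Wt at 2 dpi, and 57.7, 49.9 and 62.9 CPM in mych mut. The 3 groups did not overlap, with the mutants below Wt at 2 dpi. ITGB6 rose 46.0-fold with injury (SE 0.21 around a log2 fold change of 5.52, edgeR adjusted p = 4.5e-08), and its difference between genotypes was -0.71 (SE 0.17, edgeR adjusted p = 0.0624, DESeq2 adjusted p = 0.0016). Its alpha partner ITGAV rose 1.90-fold (SE 0.29 around a log2 fold change of 0.93, edgeR adjusted p = 0.021), and MMP14 (ENSDARG00000008388), a membrane-bound matrix protease, rose 14.1-fold (3.82, SE 0.23, edgeR adjusted p = 5.2e-07).

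Among other ligands, 6 IDs were tested, and with injury 1 was called higher and 1 lower (33.3%, beside 42.1% of all genes). INHBB-40777, an inhibin beta B chain, rose 2.01-fold (SE 0.31 around a log2 fold change of 1.01, edgeR adjusted p = 0.0206), and mstnb, a myostatin, measured 141.3, 220.8 and 208.2 CPM in uninjured Wt, 65.0, 52.1 and 72.9 CPM in Wt at 2 dpi, and 111.1, 135.5 and 68.2 CPM in mych mut. The mstnb transcript fell 3.001-fold with injury in Wt (log2 fold change -1.59, SE 0.27, edgeR adjusted p = 0.00063). Of 12 Smads and cofactors 1 rose and 4 fell (41.7% called, beside 42.1% of all genes). SKIL and skilb, of the Ski family of Smad corepressors, went in opposite directions (0.85, SE 0.30, edgeR adjusted p = 0.0383, and -1.06, SE 0.26, edgeR adjusted p = 0.0063). The Smad anchor ZFYVE9 fell by 0.65 (SE 0.20, edgeR adjusted p = 0.0197). The corepressor skib fell by 0.53 (SE 0.20, edgeR adjusted p = 0.0496), near both limits for a call.

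Of 14 inhibitors 2 rose and 2 fell with injury (28.6% called, beside 42.1% of all genes). DCN, the proteoglycan decorin that can bind Tgf-beta, measured 3.78, 4.40 and 3.56 CPM in uninjured Wt, 89.3, 164.5 and 82.1 CPM in Wt at 2 dpi, and 112.2, 114.8 and 70.8 CPM in mych mut. It rose 28.6-fold in Wt (log2 fold change 4.84, SE 0.33, edgeR adjusted p = 1.2e-06). The injured genotypes overlapped in DCN. PMEPA1, which sequesters receptor Smads and is itself a target in mammals, had a log2 fold change of 1.81 with injury (3.50-fold). It was chosen after its values were seen and did not meet the naming rule given with the processing. That rule asks for a call, no overlap between groups and a mean of 5 CPM or more. The Smad phosphatase PPM1A-43250 and the ubiquitin ligase SMURF1 fell by 1.24 and 0.91 on the log2 scale.

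Genes known from mammals as Tgf-beta or Smad3 targets were tested at 34 IDs, of which 13 rose and 2 fell with injury. That is 44.1% called, beside 42.1% of all genes (22.3% higher and 19.8% lower). The median log2 fold change of the targets was 1.47, beside -0.02 over all genes. TAGLN-45408, the actin-binding transgelin, had no count in the uninjured libraries and 7.29 to 13.1 CPM in Wt at 2 dpi, at least 189-fold higher against a floor of 3 counts per library. Many of these genes are also matrix and contractile genes of other cells, such as the collagen gene col1a1a (log2 fold change 3.86) and the fibronectin gene FN1, at ENSDARG00000006526 (3.72). Summed pericyte and smooth muscle markers (6 IDs) were 429 to 552 CPM in uninjured Wt and 510 to 706 CPM in Wt at 2 dpi, with 2 of 5 tested IDs called higher and 1 lower. Of 12 microglia IDs 6 were called higher and 1 lower (median 1.73), where 22.3% of all genes were called higher and 19.8% lower. Summed pigment epithelium markers were 402.0, 83.5 and 26.5 CPM in Wt at 2 dpi against 37.5 to 57.9 CPM in uninjured Wt. The part of these cells in the target levels was not tested. BHLHE40 and LOXL2 fell, by 1.79 and 2.35 on the log2 scale, while loxl2a, the other copy in the list, had a log2 fold change of 3.45.

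VEGFA-34700, a vascular growth factor gene, was the only target called between genotypes by edgeR. That is 1 of 34 IDs (2.94%), beside 1.69% of all genes. VEGFA-34700 measured 7.90, 11.3 and 11.4 CPM in Wt at 2 dpi and 38.0, 47.3 and 18.1 CPM in mych mut, 3.37-fold higher (log2 difference 1.75, SE 0.34, edgeR adjusted p = 0.0353). The other VEGFA ID (ENSDARG00000103542) had a log2 difference of 0.66 and was not called. The uninjured Wt libraries held 12.5 to 17.5 CPM. No target was called, VEGFA included, without Wt library 2 or 3 at 2 dpi or without mych mut library 1 (0 targets each). Over all genes, those fits called 8, 53 and 9 between genotypes, against 347 with all libraries.

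The Bmp branch, the most similar signaling route, which works through Smad1 and Smad5 in place of Smad3, had 21 IDs tested. With injury 5 were called higher and 3 lower (38.1% beside 42.1% of all genes, median 0.24), and 0 were called between genotypes, where 1.69% of all genes were. The count of 8 with injury went down to between 3 and 5 without uninjured Wt library 1 or 2, any Wt library at 2 dpi, or mych mut library 1. Over all genes those fits called 7040 to 8469 with injury, against 8621. SMAD5 measured 13.5, 11.3 and 23.9 CPM in uninjured Wt, 58.3, 69.7 and 62.5 CPM in Wt at 2 dpi and 51.5, 47.2 and 36.4 CPM in mych mut. It rose 3.91-fold with injury (log2 fold change 1.97, SE 0.28, edgeR adjusted p = 0.00017), while SMAD3-36096 fell in the same libraries. On the log2 scale SMAD3-10207 lay at -0.04 and SMAD2 at -0.24, and the other Bmp Smads, SMAD1 and smad9, at 0.68 and 0.36. The Bmp receptors bmpr1bb, BMPR2 and bmpr1ba fell by 1.19, 1.04 and 0.74.

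**Figure D4:**
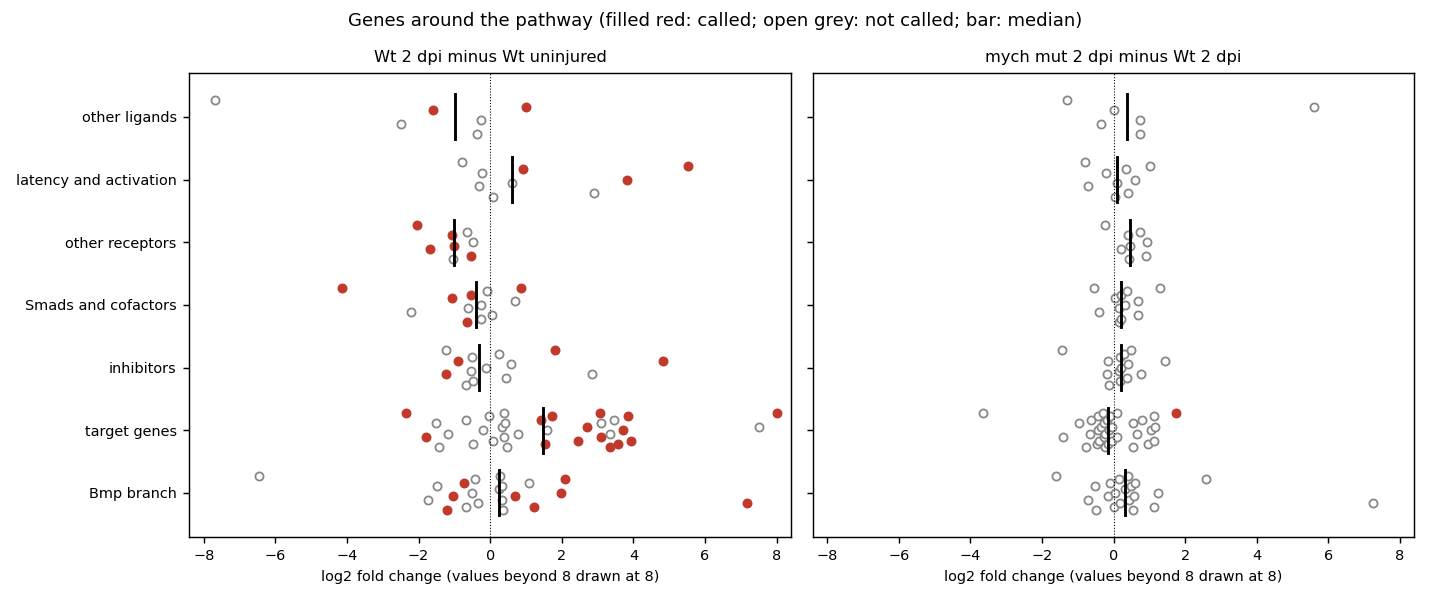
Log2 fold change (horizontal axis) of the genes around the members, by list, with injury in Wt on the left and between genotypes at 2 dpi on the right. Filled red dots were called, open grey dots were not, and the black bar is the median of the list. The receptors sit left of 0 with injury (median -1.02), the targets mostly right of it (median 1.47), and VEGFA is the only red dot on the right.

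**Figure D5:**
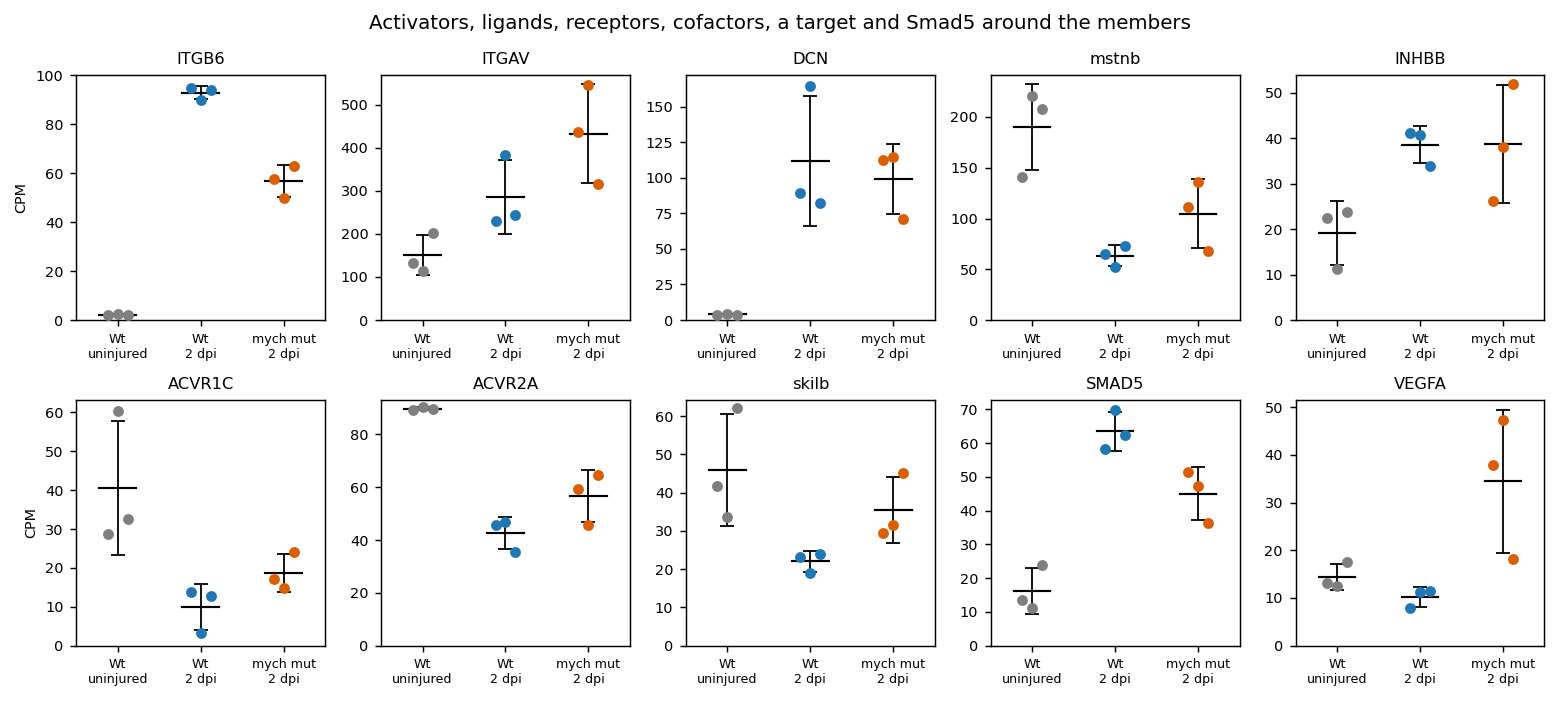
Level in CPM (vertical axis, scaled separately in each panel) of 10 genes around the members in the 3 groups, with dots for libraries, bars for means and whiskers for 1 SD. ITGB6 lies near 2 CPM in uninjured Wt, between 89.8 and 94.7 CPM in Wt at 2 dpi and between 49.9 and 62.9 CPM in mych mut.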

How the data were processed

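GFP+ MG from gfap:GFP fish gave 9 polyA RNA-seq libraries, 3 per group. The authors deposited a table of counts per gene, whole numbers that may be rounded estimates. The submitters' processing notes name cutadapt 2.3, FastQC 0.11.8, STAR 2.7.8a, RSEM 1.3.3 and DESeq2, and the reads were mapped to GRCz11. The annotation release and strand setting are not given in the sources used here, so reads of near-identical copies or of overlapping genes could be shared between them. Gene names came from a table of IDs and symbols that named 22147 of 23707 IDs (93.4%). No comparison columns were used.

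The counts were tested with edgeR 4.0.16 (R 4.3.3; filterByExpr by group, TMM scaling, robust quasi-likelihood fit over all 9 libraries with 1 mean per group) on 20484 genes, and p-values were adjusted over all of them. CPM values are TMM-scaled. Calls used an adjusted p limit of 0.05 and a log2 fold change limit of 0.5, after the study's own thresholds. The study's further limit on low FPKM values was not applied. Levels are not compared between genes, because transcript lengths were not used here, and ratios between members are read only for their change between groups. Genes around the members were named where called with injury, not overlapping between groups and averaging 5 CPM or more over the libraries, taking the 4 largest changes of each list, plus any gene called between genotypes; counts of 5 or fewer, and other named genes, were chosen after their values were seen. The alternatives were DESeq2 size factors and its Wald test (1.42.0), library size alone, upper quartile scaling, no low-count filter, only the compared libraries, a fit that was not robust, a replicate block, a log2 threshold of 1 or none, and leaving out each library. In simulated data for the injury comparison on 19531 genes, the test called 44 of 63 genes changed 8-fold, 39 of 63 changed 4-fold and 10 of 63 changed 2-fold, with 3 unchanged genes called. The members and lists were chosen with earlier results of these data known. Nothing in the sources used here gives a batch. P-values measure the spread between the pooled libraries. No sequences are shown. One target gene named by the rule is not reported here.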

Additional observations from a re-analysis of the deposited data

How the results depend on the processing

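TGFB2, TGIF1 and SMAD3-36096 were called with injury under every setting and without any one library. The count of members called was 3 to 4 with injury, 0 between genotypes and 2 to 4 in mutants against uninjured Wt, across all alternatives. Counts of list genes moved more, and so did counts over all genes. Pathway genes called between genotypes numbered 3 with DESeq2's Wald test, and target genes numbered 2 without the low-count filter, 3 with DESeq2's Wald test and 2 with only the 6 libraries compared. Over all genes, calls between genotypes numbered 1714 with DESeq2's Wald test, 459 without the low-count filter and 219 with only the 6 libraries compared. The main fit called 347. Bmp genes called with injury numbered 5 with only the 6 libraries compared. With each library left out in turn, pathway genes called numbered 12 to 22 with injury (12 without Wt uninjured 2 or Wt 2 dpi 2) and 0 to 3 between genotypes (3 without Wt 2 dpi 1), target genes 0 to 3 between genotypes (0 without Wt 2 dpi 2 or 3 or mych mut 1, 2 without Wt uninjured 2 and 3 without mych mut 2), and Bmp genes 3 to 8 with injury (3 to 5 without Wt uninjured 1 or 2, any Wt 2 dpi library, or mych mut 1). Over all genes, fits without 1 library called 7040 to 8808 with injury, against 8621. Between genotypes they called 982 of all genes without Wt 2 dpi 1, 1026 without mych mut 2 and 164 without Wt uninjured 2. Without Wt 2 dpi 2, Wt 2 dpi 3 and mych mut 1 they called 8, 53 and 9. Replicate numbers did not pair the libraries (correlation of deviations -0.075 to 0.090 over 9 pairs, 0 above 0.1). With a replicate block, 0 target genes were called between genotypes, where 111 genes were called in all. In that fit the TGFB3 injury call was lost (edgeR adjusted p = 0.0528), and the tgfb1b genotype difference turned to -1.16.

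Other turns of sign were among values that were not called. With library size alone, TGFB3 in mutants against uninjured Wt went to 0.038, TGFBR1-42259 to 0.074 with injury and to 0.0077 in mutants against uninjured Wt, and SMAD3-10207 to 0.040 with injury. With only the 6 libraries compared, TGFBR1-42259 went to 0.039 and SMAD3-10207 to 0.012 with injury. Without single libraries, the log2 differences between genotypes ran from -0.53 to 0.12 for tgfb1a, -0.079 to 0.43 for INHBA-12671, -0.50 to 0.17 for TGFBR1-17494, -0.52 to 0.29 for TGFBR1-42259 and -0.20 to 1.91 for TGFBR2-34541. Those with injury ran from -0.43 to 0.38 for TGFBR1-42259 and -0.12 to 0.094 for SMAD3-10207, and those in mutants against uninjured Wt from -0.035 to 1.001 for tgfb1a and -0.53 to 0.23 for TGFB3. The cause of these changes was not tested.

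In data simulated for the injury comparison, with 189 genes changed, 10 of 63 genes changed 2-fold were called. That share does not carry over to the real injury comparison, where 8621 genes were called, and the genotype comparison was not simulated. The lack of a call between genotypes does not show equal levels. The type II receptor IDs and tgfb1b had libraries with no count beside libraries of the same group with 54 or more, a spread beyond counting error, and the TGFB3 injury call lay at the threshold.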
